A study of Gossypium hirsutum with 89 samples.

Results

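KCS12 and KCS38 are genes for 3-ketoacyl-CoA synthases of upland cotton, Gossypium hirsutum. They were followed through 3 probe sets of the 24132 on the Affymetrix Cotton Genome array, taken by their identifiers. KCS12 has Ghi.7588.1.S1_at. KCS38 has Ghi.9531.1.S1_s_at and Ghi.9938.1.S1_x_at, called the s_at and the x_at probe set here. All 3 passed the filter on low signal. In every genotype the 3 signals rose steeply between the ovule and fibre at 6 days post anthesis (dpa) and stayed high to 12 dpa. After 12 dpa the genotypes parted. In JKC 725 and JKC 703 the signals fell to between 0.795% and 5.53% of their 12 dpa means by 25 dpa. No fall was called in JKC 777, JKC 783 or JKC 737. The higher percent was 3.64% without the first JKC 725 array at 25 dpa. The second JKC 725 array at 12 dpa was the highest of its group, which lowers the JKC 725 percents.

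A 3-ketoacyl-CoA synthase is the condensing enzyme of the fatty acid elongase in the endoplasmic reticulum. It joins malonyl-CoA to an acyl-CoA and is regarded as the step that sets the rate and the chain length of very long chain fatty acids, which go into waxes, sphingolipids and membrane lipids. Cotton fibres are single cells that grow out from the ovule epidermis, and very long chain fatty acids are known to promote their elongation, in part through ethylene.

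The series compared 5 field-grown genotypes, 2 of which (JKC 725 and JKC 777) its design text calls superior in fibre traits and 3 of which (JKC 703, JKC 783 and JKC 737) it calls inferior. Each was sampled at 0, 6, 9, 12, 19 and 25 dpa, and no group carried a treatment. The protocol took the whole ovule at 0 dpa and the fibre alone afterwards, so tissue as well as age changes between 0 and 6 dpa, although the titles call both fibre. There were 3 biological replicates per genotype and day, except 2 for JKC 783 at 25 dpa, which gave 89 arrays in 30 groups. The plants that went into a replicate were not stated, so the p-values measure the spread between these samples. In such bulk RNA, fewer cells of a type and less transcript per cell cannot be told apart.

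Signals are MAS5 intensities on a linear scale, and the median array signal lay between 59.9 and 119.8. Arrays of a group correlated with r from 0.924 to 0.993, with a median of 0.974, and the lowest value involved the second JKC 725 array at 12 dpa. The 5 fibre marker probe sets (for EXPA1, E6, H6L and 2 for LTP3) all rose from 0 to 6 dpa, and neither of the 2 histone probe sets used as markers of dividing cells changed by the test. No scan or hybridisation batch is given in the labels. The number of arrays limits the precision.

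RefSeq names for the probe sets exist in the annotation of assembly Gossypium_hirsutum_v2.1, where KCS12 is LOC107928969, with the synonym xl1, and KCS38 is LOC107925445. No genome build is named in the deposited table, so no coordinates are given. Upland cotton carries A and D subgenomes, and probe sets ending in s_at or x_at can bind more than 1 transcript, including the copies in both subgenomes. Which transcripts each of these probe sets binds, that of KCS12 included, was not tested. The deposited table holds no detection calls. A signal of 40.4, the 40th percentile of the whole table, was therefore used as the level below which a signal is treated as low, and it says nothing of whether a transcript is present. No sequence of a probe set or gene is shown here.

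The first comparison was between the ovule and fibre at 6 dpa. KCS12 signals in the ovule had a lowest, median and highest value of 0.752, 13.0 and 46.8 over the 15 arrays. At 6 dpa they were 4429.6, 7345 and 8189.6. The groups did not overlap in any genotype, and 13 of the 15 ovule arrays lay below the low-signal level. Since the ovule signal is mostly a low one, the rise is given as at least 112-fold in JKC 783, 150-fold in JKC 737, 182-fold in JKC 777, 186-fold in JKC 725 and 193-fold in JKC 703, each against that level. On the log2 scale of the fit the change averaged over the 5 genotypes was 8.53 ± 0.16 (SE, 15 arrays a day), with an adjusted p of 1.38e-51 by limma, and its size depends on the offset added to the low ovule values.

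KCS38 was already measurable in the ovule. The s_at probe set gave 1548, 2547 and 4210.4 at 0 dpa as lowest, median and highest, and 9202, 10759 and 12943 at 6 dpa. Its mean rose 3.33-fold in JKC 777, 3.69-fold in JKC 737, 4.33-fold in JKC 783, 6.02-fold in JKC 725 and 6.41-fold in JKC 703. The x_at probe set gave 374, 432 and 816 in the ovule and 3721, 6134 and 8915 in 6 dpa fibre. No 6 dpa array of either probe set lay as low as an ovule array. The mean of the x_at probe set rose 8.27-fold in JKC 737, 9.82-fold in JKC 783, 9.89-fold in JKC 777, 16.3-fold in JKC 703 and 19.5-fold in JKC 725. Averaged over genotypes the log2 changes were 2.20 ± 0.12 and 3.58 ± 0.13 (limma, adjusted p 4.33e-26 and 6.47e-36).

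All 3 probe sets were called higher at 6 dpa, where a call needs 2 things: an adjusted p under 0.05 and a minimum size of 1 in log2 units. Of all 18889 probe sets tested, 8.43% were called higher in this step and 2779 were called lower. That split depends on the scaling: 36.4% of the called probe sets were higher with the deposited scaling, 52.6% after quantile normalization and 65% after median centring, while the median over all tested probe sets moved from -0.28 to -0.101 and 0.0245. The 3 rises are far larger than these shifts. Within single genotypes all 3 were called higher in each of the 5, and the share of all probe sets so called was 11.6% in JKC 725 and 11.9% in JKC 703. For JKC 777 it was 9.29%, for JKC 783 6.98% and for JKC 737 8.2%.

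The size of this first rise differed among genotypes for 2 of the 3 probe sets by limma's F test, which was called at an adjusted p under 0.05 alone, against 34% of all tested. For KCS12 the rise ranged over 2.08 on the log2 scale from JKC 725, the smallest, to JKC 737, the largest (adjusted p = 0.0162). That range comes from ovule values that are mostly below the low-signal level, and with a larger offset it was 1.10 with an adjusted p of 0.195. For the x_at probe set the range was 1.22 (adjusted p = 0.0433), and the call was lost without a filter on low values (adjusted p = 0.0513) and without an intensity trend (adjusted p = 0.0520), as well as without any 1 of 20 of the arrays. For the s_at probe set the range of 0.94 missed the threshold (adjusted p = 0.111), and it passed after quantile normalization, at 1.42 with an adjusted p of 0.00014, and without JKC 725 (adjusted p = 0.0404).

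**Figure D1:**
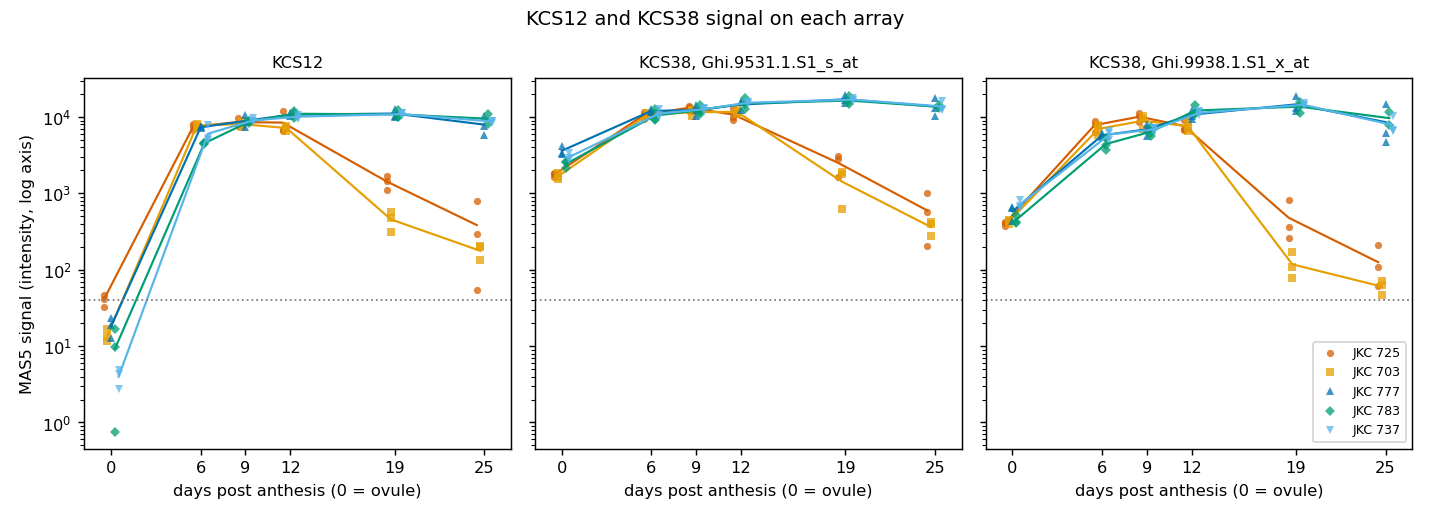
MAS5 signal (log axis) of KCS12 and of both KCS38 probe sets against days post anthesis, with 1 point per array, a line through the mean of each genotype, and a dotted line at the low-signal level of 40.4; points of different genotypes are moved sideways slightly. At 6 and 9 dpa all genotypes lie high on the axis. At 12 dpa the x_at arrays of JKC 725 and JKC 703, from 6667 to 9165, lie just under those of the other 3, from 9499 to 14216. At 19 and 25 dpa JKC 725 and JKC 703 lie far below the others for all 3 probe sets.

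From 6 to 12 dpa, while fibres elongate, the signals of KCS12 and of the s_at and x_at probe sets were high in all 5 genotypes. KCS12 signals were 7379, 8678 and 10629 at 9 dpa and 6507, 10074 and 11915 at 12 dpa as lowest, median and highest of 15 arrays. The s_at probe set gave 10199.5, 12492 and 14425 at 9 dpa and 9052, 13257 and 17598 at 12 dpa. The x_at probe set gave 5570.2, 7255 and 11364 and 6667, 10404 and 14216. No member was called from 6 to 9 dpa, where 2.1% of all probe sets were called, or from 9 to 12 dpa, where 2.42% were. The averaged log2 changes from 6 to 9 dpa were 0.41 ± 0.16 for KCS12, 0.18 ± 0.12 for the s_at probe set and 0.35 ± 0.13 for the x_at probe set. Of these, 2 had an adjusted p under 0.05 by limma but stayed under the minimum change of 1. From 9 to 12 dpa the changes were 0.11 ± 0.16, 0.10 ± 0.12 and 0.33 ± 0.13, and the last had an adjusted p of 0.0359.

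Within this window the x_at probe set moved differently among genotypes. From 9 to 12 dpa its log2 changes were -0.41 in JKC 725 and -0.23 in JKC 703. JKC 777 had 0.65, JKC 737 had 0.72 and JKC 783 had 0.92. No single one of these changes was called, but the F test among genotypes was (range 1.33, adjusted p = 0.0226), as it was for 16.7% of all probe sets. The call was lost without the third JKC 725 array at 9 dpa, and also without JKC 725, JKC 703 or JKC 783. In JKC 725 and JKC 703 its mean was highest at 9 dpa. In the other genotypes its 6 dpa mean was 39.3% (JKC 777), 32.3% (JKC 783) and 40.9% (JKC 737) of the highest mean, which came at 19 dpa. For KCS12 and the s_at probe set the F test found no difference among genotypes from 9 to 12 dpa, and it found none for any member from 6 to 9 dpa, where 19.4% of all probe sets were called.

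After 12 dpa fibres pass from elongation toward secondary wall thickening, and here the KCS12 courses of the genotypes parted. In JKC 703 the 3 KCS12 arrays gave 7689, 7292 and 6586 at 12 dpa, 576, 478 and 316 at 19 dpa and 202, 196 and 132 at 25 dpa. In JKC 725 they gave 7011, 11915 and 6507, then 1685, 1126 and 1461, then 806, 295 and 54.9. No 19 dpa array of either genotype reached its 12 dpa arrays, and the 12 dpa mean was 40.7 times the 25 dpa mean in JKC 703 and 22 times in JKC 725. The last value rests on the first JKC 725 array at 25 dpa, without which it was 48.5. In the other direction, the second JKC 725 array at 12 dpa (11915) raised the 12 dpa mean and so this multiple.

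The KCS12 arrays of the other genotypes stayed high at 19 dpa. They gave 12934, 10019 and 10444 in JKC 777, 10064, 12339 and 10172 in JKC 783 and 11204, 10446 and 11182 in JKC 737. At 25 dpa they gave 7742, 5880.2 and 10286 in JKC 777, 8065 and 10964 in JKC 783, with 2 arrays, and 8939.7, 8386 and 8963 in JKC 737. The 25 dpa arrays overlapped those of 12 dpa in JKC 783 and lay below all of them in JKC 777 and JKC 737. Their 12 dpa means were only 1.35, 1.16 and 1.16 times the 25 dpa means.

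Both KCS38 probe sets behaved in the same way. The s_at probe set gave 11614, 11067 and 12437 in JKC 703 at 12 dpa, 1785, 1895 and 628 at 19 dpa and 416, 395 and 276 at 25 dpa. In JKC 725 it gave 10043, 13257 and 9052, then 3135, 1633 and 2802, then 1005, 579 and 206. The arrays of JKC 777, JKC 783 and JKC 737 together ranged from 12222 to 17598 at 12 dpa, from 14633 to 19314 at 19 dpa and from 10416 to 17656 at 25 dpa. The highest JKC 725 or JKC 703 array at 19 dpa thus lay far below the lowest of the others.

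The x_at KCS38 probe set fell furthest. Its JKC 703 arrays gave 7397, 6667 and 8678 at 12 dpa, 108, 169 and 77.4 at 19 dpa and 46.2, 70.8 and 63.7 at 25 dpa, close to the low-signal level. Its JKC 725 arrays gave 6954, 9165 and 6861, then 814, 263 and 367, then 208, 108 and 61.1. The 12 dpa mean was 126 times the 25 dpa mean in JKC 703 and 60.8 times in JKC 725. In JKC 777 it gave 18945, 13096 and 11961 at 19 dpa and 6189.9, 4755 and 14830.3 at 25 dpa, where 1 array stood well above the other 2. In JKC 783 it gave 11292, 15941 and 13907 and then 7829 and 11556. In JKC 737 it gave 15132, 14464 and 13828 and then 10296, 6762 and 6514, with no overlap between the days.

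Tested within each genotype from 12 to 19 dpa, all 3 members were called lower in JKC 725, where 8.92% of all probe sets were called lower, and in JKC 703, where 10.1% were. In JKC 703 the log2 change was -4.0 ± 0.36 for KCS12 (limma, adjusted p = 1.07e-14), -3.18 ± 0.26 for the s_at probe set and -6.01 ± 0.28 for the x_at probe set. In JKC 725 it was -2.53 ± 0.36 for KCS12 (adjusted p = 3.2e-08), -2.13 ± 0.26 for the s_at probe set and -4.13 ± 0.28 for the x_at probe set. Leaving out the second JKC 725 array at 12 dpa, which stands apart from its replicates and carried the highest KCS12 signal of that group, left the KCS12 change at -2.26 (adjusted p = 5.32e-06). Without the second JKC 725 array at 19 dpa the changes of the KCS38 probe sets were -1.84 and -3.78. None of the 3 was called lower in JKC 777, JKC 783 or JKC 737, where 5.61%, 4.62% and 4.04% of all probe sets were. Their 9 estimates in those genotypes ran from -0.028 to 0.43, and none had an adjusted p under 0.05.

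From 19 to 25 dpa all 3 members were called lower in JKC 725, with changes of -2.53 ± 0.36 for KCS12, -2.29 ± 0.26 for the s_at probe set and -1.90 ± 0.28 for the x_at probe set, against 4.78% of all probe sets. The KCS12 fall depends in size on the third JKC 725 array at 25 dpa, without which the change was -1.52 (adjusted p = 0.000143). In JKC 703 the change was -1.33 ± 0.36 for KCS12 (adjusted p = 0.00743) and -1.84 ± 0.26 for the s_at probe set, both called, against 4.63% of all probe sets called lower. The KCS12 call there was lost with no offset (adjusted p = 0.0515) and without the third JKC 703 array at 25 dpa (adjusted p = 0.0526). For the x_at probe set the JKC 703 change was -0.87 ± 0.28 (adjusted p = 0.0275), under the minimum size, and it was called, at -1.13, without the third JKC 703 array at 19 dpa.

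No member was called lower from 19 to 25 dpa in the other 3 genotypes, where the share of all probe sets called lower was 5.76% for JKC 777, 2.39% for JKC 783 and 12.8% for JKC 737. Their estimates were all negative, from -0.92 to -0.20. For the x_at probe set the adjusted p was 0.0119 in JKC 777 (-0.92 ± 0.28) and 0.0082 in JKC 737 (-0.91 ± 0.28), both under the minimum size of change.

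**Figure D2:**
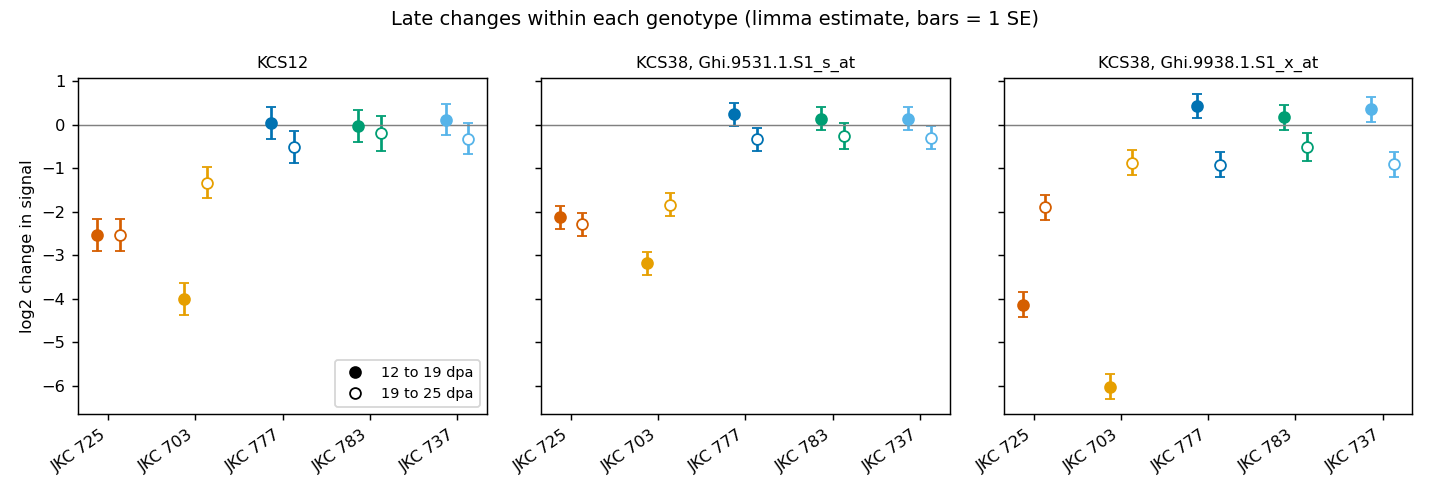
Log2 change in signal from 12 to 19 dpa (filled) and from 19 to 25 dpa (open) within each genotype for the 3 probe sets, as limma estimates with bars of 1 SE. The filled points of JKC 725 and JKC 703 lie between -2.13 and -6.01, and those of the other genotypes lie near 0.

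The difference itself was tested. The change from 12 to 19 dpa differed among the 5 genotypes by a range of 4.12 for KCS12 (limma's F test, adjusted p = 1.03e-11), 3.41 for the s_at probe set (adjusted p = 4.68e-14) and 6.44 for the x_at probe set (adjusted p = 5.56e-25). Such a difference was common: 54.7% of all probe sets passed. From 19 to 25 dpa the range was 2.33 for KCS12 (adjusted p = 0.000667) and 2.02 for the s_at probe set (adjusted p = 1.2e-06), while the x_at probe set missed the threshold (range 1.38, adjusted p = 0.0528), against 37.3% of all. For that probe set the adjusted p passed at 0.049 with no offset, 0.0449 with a stricter filter, 0.0467 without JKC 703 and 0.0238 without JKC 777, and it also passed without any 1 of 10 of the arrays. Without the third JKC 725 array at 25 dpa the KCS12 range was 1.32 (adjusted p = 0.00881).

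Over the whole transition, which sets the mean of the late fibre days (19 and 25 dpa) against that of the early ones (6, 9 and 12 dpa), the genotypes ranged over 5.18 for KCS12, 4.32 for the s_at probe set and 7.19 for the x_at probe set, and all 3 passed, as did 71.7% of all probe sets. The interaction of genotype and day over the 5 fibre days gave F values of 30.2, 43.4 and 93.3 with adjusted p of 4.38e-22, 3.88e-26 and 1.66e-34, and 78.9% of all probe sets passed. Averaged over all genotypes the transition was -1.56 ± 0.11, -1.34 ± 0.077 and -2.02 ± 0.083, and all 3 were called lower against 9.68% of all. The averages hide the split: without JKC 703 they were -0.76, -0.66 and -0.90, all under the minimum size. By genotype the KCS12 transition was -3.78 ± 0.23 in JKC 725 and -4.76 ± 0.23 in JKC 703, against 0.065 ± 0.23 in JKC 777, 0.26 ± 0.23 in JKC 737 and 0.41 ± 0.25 in JKC 783.

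The averaged single steps were near the minimum size and split accordingly. From 12 to 19 dpa, KCS12 (-1.28 ± 0.16) and the x_at probe set (-1.84 ± 0.13) were called lower and the s_at probe set (-0.96 ± 0.12) was not, against 4.21% of all probe sets. Without JKC 703 the first 2 were -0.60 and -0.80. From 19 to 25 dpa, the s_at probe set (-1.01 ± 0.12) and the x_at probe set (-1.02 ± 0.13) were called lower and KCS12 (-0.98 ± 0.17) was not, against 3.2% of all. In that step 33.6% of the called probe sets were higher with the deposited scaling, 45.8% after quantile normalization and 56.1% after median centring, with median changes of all tested of -0.0999, -0.0117 and 0.0813.

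Markers of other cells were measured on the same arrays, and only some of them followed this split. The 6 seed and embryo probe sets, for vicB_At, LegA-C94, LegB-C134, Lea5-D and Lea14-A, summed to 8767 to 9880.3 per array in JKC 725 at 19 dpa and to 10374 to 12863 in JKC 703. The sum was 2054 to 4338 in JKC 777, 1624 to 3173 in JKC 783 and 5226 to 7595 in JKC 737. At 25 dpa it was 7705 to 17068, 16173 to 17642, 3009 to 8596, 1919 to 5734 and 2938 to 3925 in the same order. Most of it came from Lea5-D, a late embryogenesis abundant protein gene, with a mean of 7410.0 in JKC 725 and 11380.5 in JKC 703 at 19 dpa. Its means were already apart at 12 dpa, at 3844 and 5878 there, with JKC 725 arrays from 745 to 5463, against 788 (JKC 777), 1823 (JKC 783) and 1010.3 (JKC 737). Its change from 12 dpa did not follow the KCS split. In percent of the 12 dpa mean, Lea5-D at 19 dpa was at 193% in JKC 725 and 194% in JKC 703. It was at 186% for JKC 777, 63.3% for JKC 783 and 494% for JKC 737. Over the list 3 of 6 rose in the transition (vicB_At, Lea5-D and a LegB-C134 probe set) and 2 fell (Lea14-A and a second LegB-C134 probe set).

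The storage protein genes are the defining seed markers, and apart from the second LegB-C134 probe set they were raised mainly in JKC 725. That probe set fell in JKC 725, from a mean of 172 at 12 dpa to 49.5 at 19 dpa and 58.3 at 25 dpa. It was also lower at 25 dpa than at 12 dpa in every other genotype. Vicilin (vicB_At) gave 437, 3711 and 205 in JKC 725 at 19 dpa and 1686, 999.5 and 0.462 at 25 dpa. In JKC 703 it gave 48.6, 47.3 and 7.72 at 19 dpa and 32.3, 44.5 and 197 at 25 dpa. The probe set of the legumin gene LegB-C134 that rose is meant by LegB-C134 from here on. It gave 800.4, 377 and 0.668 in JKC 725 and 28.0, 15.2 and 115 in JKC 703 at 25 dpa. In the other 3 genotypes no vicilin array at 19 or 25 dpa was above 41.3. The order of KCS and vicilin signals among the arrays of a group varied, and a link between them was not tested. On the third JKC 725 array at 25 dpa vicilin and LegB-C134 were near 0 and the 3 KCS signals were the lowest of the group. The second JKC 725 array at 19 dpa had the highest vicilin signal, 3711, and a LegB-C134 signal of 460.1, and its 3 KCS signals were also the lowest of the group. In JKC 703 the third array had the lowest KCS12 and s_at signals at both days, with the lowest vicilin signal at 19 dpa and the highest at 25 dpa.

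The summed fibre markers were lower in the same genotypes at 25 dpa, and so was the mean of each marker except H6L. The 5 fibre markers summed to 32320.0 to 40182 in JKC 725 and 36167 to 40264 in JKC 703 at 25 dpa. The sum was 63083 to 84793 in JKC 777, 61201 to 62816 in JKC 783 and 65500.3 to 96158 in JKC 737. E6, an abundant fibre protein gene, had means of 5961 ± 1168 in JKC 725 and 5759.5 ± 357 in JKC 703 (SD, n = 3), which are 42.4% and 39.4% of its 12 dpa means. H6L was at 16949 ± 462 and 20169 ± 1347, above its 12 dpa means. Its means were 17796 in JKC 777, 16643 in JKC 783 and 20141 in JKC 737. An LTP3 probe set had means of 12509 and 11587, below those of JKC 777 (18570), JKC 783 (15491) and JKC 737 (20426). In percent of its own 12 dpa means it was at 78.3% and 103%. The JKC 725 percents rest partly on the second array at 12 dpa, since the 5 markers summed to 33086 to 90394 per array in that group. Without it E6 was at 59%, H6L at 194% in place of 120%, and that LTP3 probe set at 156%. EXPA1, an expansin that loosens the cell wall, was at 4.45% and 2.77% of its 12 dpa means. The other LTP3 probe set was low at 25 dpa in all genotypes, between 4% and 30.7%. Its lowest 25 dpa means were those of JKC 725 (47.9) and JKC 703 (145). The 2 histone probe sets summed to 8133 to 9662 in JKC 725, 11531 to 12144 in JKC 703, 6308 to 7676 in JKC 777, 8439 to 9556 in JKC 783 and 6971 to 8210.3 in JKC 737. The part of other cells in the KCS differences was not tested.

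Compared day by day, the 5 genotypes differed first in the ovule. KCS12 gave 46.8, 41.8 and 32.2 in JKC 725 and 23.4, 12.8 and 18.7 in JKC 777. JKC 703 arrays gave 13.0, 11.7 and 16.6, JKC 783 arrays 16.9, 9.83 and 0.752 and JKC 737 arrays 4.32, 4.86 and 2.76. The range of means was 2.41 on the log2 scale (F test, adjusted p = 9.99e-07), although 13 of these 15 signals are low. The s_at probe set gave 4210.4, 3292 and 3352 in JKC 777, the highest, and 1662, 1548 and 1825 in JKC 703, the lowest, with a range of 1.10 (adjusted p = 0.000779). That call was lost after median centring (0.97), without JKC 777 (0.84) and without the first JKC 777 array. The x_at probe set had a range of 0.82 (adjusted p = 0.0561) and was not called, so 2 of 3 passed, against 28.5% of all probe sets.

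No member was called among genotypes by limma's F test at 6, 9 or 12 dpa, days on which 27.9%, 25.6% and 30.1% of all probe sets were. Only 1 of these 9 tests had an unadjusted p under 0.05, that of 1 member at 12 dpa. The ranges at 12 dpa were 0.62 for KCS12, 0.54 for the s_at probe set and 0.68 for the x_at probe set. After quantile normalization KCS12 (1.02) and the x_at probe set (1.10) were called at 6 dpa. At 19 dpa all 3 were called, with ranges of 4.63, 3.72 and 6.95, against 49.2% of all probe sets. At 25 dpa the ranges were 5.72, 5.24 and 7.22, again all called, against 49.4%.

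Pairs of genotypes show the shape of these late differences. At 19 dpa JKC 725 minus JKC 777 was -2.97 ± 0.36 for KCS12, -2.81 ± 0.26 for the s_at probe set and -5.05 ± 0.28 for the x_at probe set. Between the genotypes that lost the signal, JKC 725 stood above JKC 703 at 19 dpa by 1.65 ± 0.36 for KCS12 (limma, adjusted p = 0.000783) and 1.89 ± 0.28 for the x_at probe set (adjusted p = 1.62e-06). For the s_at probe set the difference of 0.92 ± 0.26 (adjusted p = 0.0125) was under the minimum size. At 25 dpa none of the 3 was called between them. The differences there were 0.45 ± 0.36 for KCS12, with a 95% interval from -0.27 to 1.17, 0.46 ± 0.26 for the s_at probe set, from -0.063 to 0.99, and 0.87 ± 0.28 for the x_at probe set, from 0.30 to 1.43. Among JKC 777, JKC 783 and JKC 737 no pair was called for any member at 19 or 25 dpa, and the estimate of largest size among the 18 was -0.33 ± 0.32, for the x_at probe set.

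Ordered by mean, the 30 groups of KCS12 ran from JKC 777 at 19 dpa (11132 ± 1575, SD, n = 3) down to JKC 737 at 0 dpa (3.98 ± 1.09). Of the 29 neighbours in that order, 24 had overlapping arrays and 5 did not. The gaps lay between JKC 737 and JKC 783 at 6 dpa, between JKC 783 at 6 dpa and JKC 725 at 19 dpa, between JKC 725 and JKC 703 at 19 dpa, and on either side of JKC 725 at 0 dpa. The first 20 places were all held by fibre groups of 6 to 12 dpa or by the later days of JKC 777, JKC 783 and JKC 737. Neighbours among them overlapped, which sorting by mean favours. Groups further apart need not overlap: JKC 737 arrays ran from 5079 to 7871 at 6 dpa and from 10446 to 11204 at 19 dpa. For the s_at probe set, 27 of 29 neighbours overlapped, and for the x_at probe set 25 did.

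The split at late days did not follow the fibre trait classes, since JKC 725 is labelled superior and JKC 703 inferior. Superior and inferior were compared with genotypes as replicates, 2 against 3. No member was called on any day by limma, and of the 21 tests only 1, for 1 member at 0 dpa, had an unadjusted p under 0.05. At 25 dpa the difference, superior minus inferior, was -0.83 for KCS12 with a 95% interval from -6.54 to 4.88. At 19 dpa it was 0.072, from -4.43 to 4.58. Over the fibre days it was -0.083 for KCS12 (from -2.24 to 2.07), -0.16 for the s_at probe set (from -2.16 to 1.83) and -0.15 for the x_at probe set (from -2.96 to 2.65).

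These intervals span changes of several log2 units either way, so the comparison cannot show that the classes are alike. Hardly any probe set passed it: the share called was 0.00529% at 0 dpa, 0.0159% at 6 dpa, 0.00529% at 12 dpa and 0% at 9, 19 and 25 dpa and over the fibre days. At an unadjusted p under 0.05 it counted 685 probe sets at 0 dpa, 203 at 6 dpa, 337 at 9 dpa, 250 at 12 dpa, 79 at 19 dpa, 99 at 25 dpa and 140 over the fibre days.

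RefSeq assigns 2 more probe sets to the KCS38 locus, with identifiers that end in a_at and in a plain at, and they did not share the course of the 2 described. The at probe set changed from the ovule to 6 dpa by -1.23 ± 0.075 and the a_at probe set by -1.54 ± 0.12, both called lower, while the other 2 rose. Ovule means of the at probe set ran from 997 in JKC 725 to 1462 in JKC 737, and its fibre means from 219.9 to 779. Ovule means of the a_at probe set ran from 86.6 in JKC 725 to 445 in JKC 777, and its fibre means from 36.2 to 94.6.

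Neither lost signal late in JKC 725 or JKC 703. From 12 to 19 dpa the a_at probe set was called higher in JKC 725 (1.12 ± 0.26) and JKC 703 (1.17 ± 0.26), at signals near the low-signal level. The at probe set changed there by 0.66 ± 0.17 and 0.97 ± 0.17, under the minimum size. Averaged over genotypes the transition was 0.0058 ± 0.077 for the a_at probe set and -0.32 ± 0.049 for the at probe set, and neither was called. Over the 25 fibre group means, the 2 described KCS38 probe sets had a Pearson r of 0.983 with each other and from -0.235 to -0.658 with the other 2, as a description of means that share arrays. The signals of different probe sets are not on 1 scale, and which transcripts each binds was not tested.

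**Figure D3:**
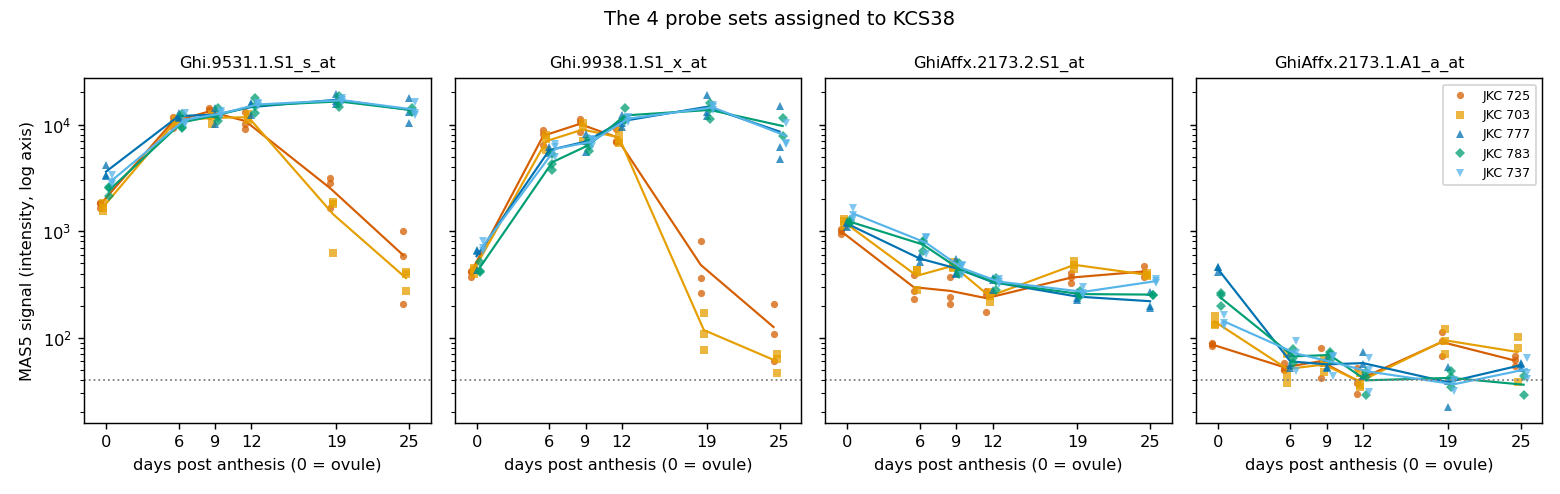
MAS5 signal (log axis) of the 4 probe sets assigned to KCS38 against days post anthesis, with 1 point per array, a line through the mean of each genotype and a dotted line at 40.4. The 2 on the left rise into fibre and fall late in JKC 725 and JKC 703, and the 2 on the right are highest in the ovule in every genotype except the a_at probe set in JKC 725.

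KCS12 moved together with the s_at and x_at probe sets of KCS38, but not with the other 2. Over the 25 fibre group means KCS12 correlated with the s_at probe set at a Pearson r of 0.993 (Spearman 0.923) and with the x_at probe set at 0.990 (Spearman 0.873). Over all 30 groups the Pearson r was 0.782 and 0.820. With the a_at probe set KCS12 had a Pearson r of -0.594 over the 25 fibre groups and -0.840 over all 30. With the at probe set it had -0.278 and -0.810. These are descriptions of means from shared arrays.

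Of the other synthases that could be named, KCS45 (synonym FDH) also split late, but its genotype means were already apart at 9 and 12 dpa. Its signal rose from the ovule to 6 dpa by 1.78 ± 0.11 and fell in the transition by 1.63 ± 0.075. In JKC 725 its means were 4937 ± 645 at 6 dpa, 1493 ± 562 at 12 dpa, 444 ± 186 at 19 dpa and 184 ± 42.7 at 25 dpa (SD, n = 3). In JKC 703 they were 4010.3 ± 653, 2702 ± 208, 523 ± 308 and 115 ± 5.13. Unlike those of the 3 members, its JKC 725 and JKC 703 means were highest at 6 dpa. They were already lower at 9 dpa, at 2557 ± 566 and 2661 ± 338. The 9 dpa means were 5224 in JKC 777, 4414 in JKC 783 and 5471 in JKC 737. At 12 dpa they were 5752, 4604 and 5385 in the same order. Both late steps were called lower in JKC 725 and JKC 703 and neither in the other 3. The 25 dpa means of those 3 were 4229 (JKC 777), 2167 (JKC 783) and 5460.3 (JKC 737). The transition differed among genotypes by 3.53 (F test, adjusted p = 1.74e-25).

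KCS10 gave low signals, with group means from 4.20 to 116, and its averaged transition of 0.85 ± 0.12 was under the minimum size. With the 3 members, 4 of the 7 elongase probe sets fell in the transition and none rose, with a median change of -1.34 against -0.022 over all 18889 probe sets. Since 3 of those 4 are the members, the count adds only KCS45, and the median is the value of the s_at probe set itself. Names were searched only among the 324 probe sets with a gene synonym. None of these was named as another subunit of the elongase, which says nothing of the other probe sets.

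By their pattern over the 30 group means, 65 probe sets (0.344% of those tested) correlated with KCS12 at a Pearson r above 0.95, 33 (0.175%) with the s_at probe set and 42 (0.222%) with the x_at probe set. The nameable ones most like KCS12 were EXPA1 (r = 0.971), CCR1, a cinnamoyl-CoA reductase (0.961), E6 (0.959), PK1 (0.954) and Mn-SOD, a superoxide dismutase (0.951). Those most like the s_at probe set were Ssh2 (0.982), the other KCS38 probe set (0.982), the acyl-CoA binding protein gene ACBP (0.956), the UDP-glucose dehydrogenase gene UGD2 (0.95) and KCS45 (0.929). Those most like the x_at probe set were ACBP (0.986), the other KCS38 probe set, Ssh2 (0.966), UGD2 (0.939) and Pel, a pectate lyase (0.930).

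These neighbours differed in how far they shared the late loss. EXPA1 had 12, 19 and 25 dpa means of 8816, 1649 and 392 in JKC 725 and 11357, 1368 and 315 in JKC 703. At 25 dpa EXPA1 was at 4.45% and 2.77% of its 12 dpa mean there, close to KCS12 at 4.55% and 2.46%. Without the first JKC 725 array at 25 dpa KCS12 was at 2.06% and EXPA1 at 3.59%, and Ssh2 and Pel, given next, were at 1.08% and 2.5%. The second JKC 725 array at 12 dpa, the highest of its group for KCS12, lowers the KCS12 percent. Ssh2 was at 1.97% and 1.45%, ACBP at 13.8% and 13.4% and UGD2 at 10.2% and 11.1%. CCR1 was at 43.3% and 19.9%, PK1 at 49% and 38.5% and Mn-SOD at 71.4% and 68.2%, and their r with KCS12 over the 25 fibre groups alone was 0.866, 0.951 and 0.888. Pel was at 4.34% and 0.609%, but it was also low in the other genotypes, at 16.2% (JKC 777), 11.3% (JKC 783) and 11.4% (JKC 737). The JKC 777 value of Pel was 8.84% without the third array at 25 dpa.

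**Figure D4:**
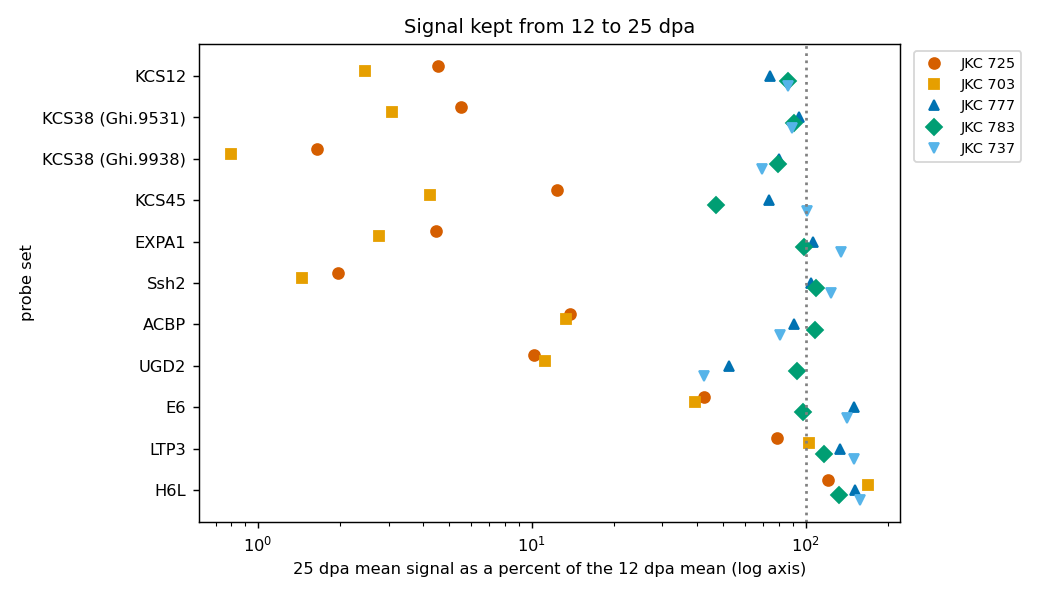
Mean signal at 25 dpa as a percent of the mean at 12 dpa (log axis) for the 3 members, KCS45, 4 probe sets with a similar pattern and 3 fibre markers, with 1 point per genotype and a dotted line at no change. EXPA1, also a fibre marker, is drawn among those with a similar pattern. The LTP3 probe set that fell is not drawn. It was at 5.36% in JKC 725, 30.7% in JKC 703 and from 4% to 8.51% in the others. KCS12 lies at 4.55% in JKC 725 (2.06% without its first 25 dpa array) and 2.46% in JKC 703 and from 74.1% to 86.6% in the others, while H6L lies above 100% in all 5.

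Genes around the elongase were described by lists, with changes averaged over the genotypes. Such averages can hide differences among genotypes, which limma's F test found in the transition for 71.7% of all probe sets. Changes within single genotypes are not given for these lists. Of 10 probe sets for fatty acid supply, 1 rose and 4 fell in the transition, with a median change of -0.90. The largest falls were those of the cyclopropane fatty acid synthases CPA-FAS-2 (-2.49 ± 0.18) and CPA-FAS-1 (-2.23 ± 0.16). The stearoyl-ACP desaturase gene sad1 also fell (-1.28 ± 0.042), and the desaturase gene FAD78-1A was the one that rose (1.46 ± 0.054). CPA-FAS-2 had fallen from the ovule to 6 dpa too, by 3.33 ± 0.28. None of the 10 supply probe sets was called higher in that step, which is near the share of 8.43% of all tested probe sets. The thioesterase gene FatB1 gave -1.71 ± 0.078 with one probe set and 0.28 ± 0.03 with another, so that its probe sets disagree.

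Of the 2 lipid transfer probe sets, both for LTP3, 1 fell (-3.19 ± 0.09) and the other was at 0.24 ± 0.064, uncalled. Of 6 ethylene synthesis probe sets 2 rose and 1 fell. The oxidase gene ACO3 rose by 1.51 ± 0.21 and a probe set of the oxidase gene ACO1 by 1.02 ± 0.19, while a second ACO1 probe set was not called. The synthase gene ACS3 fell by 1.55 ± 0.12. Of 10 probe sets for MYB and HD-ZIP factors 4 fell and none rose, led by myb109 (-3.84 ± 0.14), a MYB factor of fibre, and GHMYB10 (-2.93 ± 0.18). The others were GHMYB38 (-1.96 ± 0.12), whose second probe set was not called (-0.76 ± 0.10), and GHMYB36 (-1.62 ± 0.19). Of the 5 fibre markers 2 fell, EXPA1 and the same LTP3 probe set, and none rose. On the same averages over genotypes, 1649 of all 18889 tested probe sets rose and 1828 fell.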

How the data were processed

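The study measured RNA of cotton ovules and fibres on Affymetrix arrays, 1 array per sample. The deposited values are MAS5 signal intensities on a linear scale, per the submitters' processing notes, which give no version. The 2% trimmed mean of every array lay between 500.091 and 500.188, so the arrays carry a global scaling. Labelling used biotin and the RNA came from a plant total RNA kit, per the labels' protocols. No scanner files were used here.

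The 103 control probe sets were left out. A probe set was tested when at least 1 group mean reached 40.4, the 40th percentile of the table, which kept 18889 and left out 5140. Signals were taken as log2(signal + 4.38), the offset being the 10th percentile of the table, so fold changes of low signals are understated. limma 3.58.1 in R 4.3.3 fitted 30 group means with an intensity trend, and p-values were adjusted by Benjamini-Hochberg over all tested probe sets. A change within or across genotypes was called at an adjusted p under 0.05 and at least 1 on the log2 scale, and a difference among genotypes on a day at a range of at least 1. Differences among genotypes in a step, the interaction and the trait class needed the adjusted p alone. The class test used the 5 genotype means. The scripts were tested on simulated data with known changes.

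Gene names came from the platform annotation brought up to date through RefSeq: 697 probe sets had 1 gene, 46 several and 23389 none. Lists and nameable neighbours were matched on gene synonyms alone, which 324 probe sets had, 303 of them tested. The named genes were the members, all other elongase probe sets, up to 2 called members of each list with the largest transition, and the 5 nameable probe sets most like each member. Further list members that complete a count were named after their values were seen. The members and lists were chosen with earlier results of these data known. Alternatives covered the offset, scaling, filter, trend, replicate number and single arrays or genotypes left out.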

Additional observations from a re-analysis of the deposited data

Results flagged for a closer look

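The step from 12 to 19 dpa differed among the 5 genotypes by limma's F test, with a range of 4.12 on the log2 scale for KCS12, 3.41 for the s_at probe set and 6.44 for the x_at probe set. The step from 19 to 25 dpa did so for KCS12, with a range of 2.33, and for the s_at probe set, with 2.02. Over the transition from early to late fibre days the ranges were 5.18, 4.32 and 7.19 in that order of probe sets. The F values of the interaction of genotype and fibre day were 30.2, 43.4 and 93.3. In each of these, JKC 725 and JKC 703 fell and JKC 777, JKC 783 and JKC 737 were not called lower.

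Earlier steps differed by less. From 0 to 6 dpa the range was 2.08 for KCS12, from ovule signals that are mostly low, and 1.22 for the x_at probe set. From 9 to 12 dpa it was 1.33 for the x_at probe set. Apart from a second LegB-C134 probe set, seed storage transcripts were raised in late JKC 725 arrays, and their part in these differences was not tested. The array with the lowest KCS signals had the lowest vicilin signal in JKC 725 at 25 dpa (0.462) and the highest in JKC 725 at 19 dpa (3711).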

How the results depend on the processing

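Over 105 tested results and 13 settings, 1181 of 1233 values kept their direction and side of the threshold, 31 lost a call, 17 gained one and 4 changed sign. Leaving out single arrays, in 89 fits, changed 15 of the 105. All falls within JKC 725 and JKC 703 from 12 to 19 dpa kept their calls under every setting run. The causes of the changes below were not tested.

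Averages over genotypes near the minimum size moved across it. From 12 to 19 dpa KCS12 was -0.97 without JKC 725 and -0.60 without JKC 703. The s_at probe set was -1.12 after quantile normalization, -1.02 after median centring, and -1.26, -1.24 and -1.24 without JKC 777, JKC 783 or JKC 737. The x_at probe set was -0.80 without JKC 703. From 19 to 25 dpa KCS12 was -1.10, -1.17 and -1.14 without JKC 777, JKC 783 or JKC 737. The s_at probe set was -0.99 with the larger offset of 17.2 and after quantile normalization, -0.83 after median centring, -0.69 without JKC 725 and -0.80 without JKC 703. The x_at probe set was -0.98 with that offset, -0.97 after quantile normalization, -0.84 after median centring and -0.80 without JKC 725. The transition was -0.76, -0.66 and -0.90 without JKC 703, and -0.83 for the s_at probe set without JKC 725. From 9 to 12 dpa the s_at probe set turned to -0.053 after quantile normalization. Without single arrays the s_at probe set ran from -1.02 to -0.86 from 12 to 19 dpa and from -1.11 to -0.88 from 19 to 25 dpa, where KCS12 ran from -1.15 to -0.78 and the x_at probe set from -1.12 to -0.93.

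Leaving out genotypes in the tests among genotypes was chosen after seeing the data. The 0 to 6 dpa range of KCS12 lost its call with the larger offset (1.10), after median centring (1.83) and without JKC 737 (1.36). That of the s_at probe set gained one after quantile normalization (1.42) and without JKC 725 (0.94). That of the x_at probe set lost it with no filter or no trend and without JKC 703 or JKC 783 (1.22 in each), without JKC 725 (0.97) and without JKC 737 (0.98), and ran from 1.10 to 1.36 without single arrays. Its 9 to 12 dpa range was 1.16, 1.33 and 1.12 without JKC 725, JKC 703 or JKC 783 and ran from 1.21 to 1.46. Its 19 to 25 dpa range gained a call with no offset (1.43) and with a stricter filter or without JKC 777 or JKC 703 (1.38 in each), and ran from 0.92 to 1.82. On single days, the s_at probe set at 0 dpa was 0.97 after median centring and 0.84 without JKC 777 and ran from 0.99 to 1.16. Quantile normalization gave 1.06 for the x_at probe set at 0 dpa, and 1.02 for KCS12 and 1.10 for the x_at probe set at 6 dpa.

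Trait class differences near 0 changed sign. KCS12 was -0.011 at 9 dpa after quantile normalization and -0.053 at 12 dpa after median centring, and the x_at probe set was 0.0098 at 19 dpa after quantile normalization. Without single arrays KCS12 ran from -0.052 to 0.078 at 9 dpa, -0.12 to 0.095 at 12 dpa, -0.0081 to 0.15 at 19 dpa and -0.17 to 0.019 over the fibre days, and the s_at probe set from -0.31 to 0.0021 at 19 dpa.

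Replicate numbers did not pair the samples: over 1218 pairs of same-numbered arrays the median correlation of deviations was 2.9e-06, from -0.426 to 0.368, and 34 of 89 arrays correlated best with their own number. With the replicate block no call on the members changed, and 3475 probe sets were called in the transition against 3477. The KCS12 range from 12 to 19 dpa was 4.12 with that block.

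Counts of all probe sets called moved by over 1.5 times in these cases. From 6 to 9 dpa 397 became 613 with no offset and 255 with the larger one, and from 9 to 12 dpa 458 became 717 with no offset. With the stricter filter, which tests 13319 probe sets, 5381 became 2878 among genotypes at 0 dpa, 5497 became 3572 in JKC 777 from 0 to 6 dpa and 5473 became 3500 in JKC 703 from 12 to 19 dpa. Among genotypes, 5381 became 2874 at 0 dpa and 6420 became 3938 from 0 to 6 dpa without JKC 777. Without JKC 725, 3664 became 2181 from 6 to 9 dpa and 4833 became 3119 at 9 dpa. Without JKC 703, 3158 became 1563 from 9 to 12 dpa and 10340 became 6607 from 12 to 19 dpa. Without JKC 737, 7049 became 4649 from 19 to 25 dpa. Percents of 12 dpa without single arrays were computed after seeing the data. That of the x_at probe set in JKC 777 was 50.8% without the third array at 25 dpa, against 79.8%. Low KCS12 signals in the ovule limit any statement on its level there.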
